A study of Mus musculus with 6 samples.

Results

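The carbonic anhydrases Car1, Car2 and Car4, bisphosphoglycerate mutase (Bpgm) and the antioxidant enzymes Prdx1, Prdx2, Cat, Gpx1 and Sod1 were followed in cells sorted from the limb skeleton of newborn mice. A gene was included where a probe set of the array was annotated with that gene and no other, and among several the one whose values averaged highest on the 6 arrays stood for the gene. This gave 17 probe sets for 8 of the 9 listed genes, out of 18193 genes in all. Prdx1 had no such probe set, since the 5 that name it also name Gm21399, and its level is not given. The arrays were Affymetrix 430 2.0 arrays, with 3 from a Tie2-positive population (without CD45 or Ter119, with low integrin alpha V and with the angiopoietin receptor Tie2) and 3 from a Tie2-negative population (without CD45, Ter119, integrin alpha V or Tie2). All cells came from pooled fore and hind limbs of a litter at postnatal day 3, dissected and released with collagenase, without treatment. The labels give the genotype of both populations as wild type and also speak of GFP-labelled mice. CD45 is an antigen of leukocytes and Ter119 one of maturing red cells, so both gates were set to leave out blood cells.

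Carbonic anhydrases interconvert carbon dioxide and bicarbonate. In red cells the cytosolic forms encoded by Car1 and Car2 speed the loading of carbon dioxide, Car2 also serves acid secretion by osteoclasts, and the form encoded by Car4 is anchored to the outer membrane of cells such as capillary endothelium. Bpgm makes bisphosphoglycerate, which lowers the oxygen affinity of haemoglobin. Sod1 turns superoxide into hydrogen peroxide, and Cat, Gpx1 and the peroxiredoxins remove that peroxide, which protects cells rich in iron and oxygen such as red cells. Most of these antioxidant enzymes are made by nearly all cells, while high levels of Car1, Car2 and Bpgm are typical of the erythroid lineage.

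Promoter sequence was available for 7 of the 9 genes (all but Car1 and Car2) as RefSeq windows of the GRCm38.p6 build, from 250 bases before to 50 after the start of the gene. These stretches, all upstream of the start, are from some of the measured genes whose windows hold the letters searched for. Capitals mark a match to CCNCNCCC, a motif of the erythroid factor Klf1 and of related Krüppel-like factors, on either strand. Cat also had upstream matches to CCNCNCCC, which are not printed, and the match of Gpx1 lay after the start. In Sod1 the capitals nearest the start also hold a match to the antioxidant response element TGACNNNGC, which overlaps the CCNCNCCC match.
Prdx2 (chr8:84969512-84969591, plus strand): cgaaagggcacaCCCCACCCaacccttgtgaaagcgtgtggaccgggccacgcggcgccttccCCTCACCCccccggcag
Sod1 (chr16:90220612-90220721, plus strand): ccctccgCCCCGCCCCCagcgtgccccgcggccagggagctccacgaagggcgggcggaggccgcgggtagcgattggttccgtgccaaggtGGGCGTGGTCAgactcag
Bpgm (chr6:34476226-34476265, plus strand): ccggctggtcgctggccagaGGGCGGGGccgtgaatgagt
Car4 (chr11:84957614-84957653, plus strand): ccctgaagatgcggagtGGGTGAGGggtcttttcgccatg
The run of capitals farther from the start in Sod1 holds 2 overlapping CCNCNCCC matches. All 7 windows held a match to CCNCNCCC, and so did 49.5% of the 32851 mouse windows of the same length. The antioxidant response element was in the windows of Prdx1 and Sod1, against 12.4% of all windows. The motif of GATA factors was searched as AGATAA and as TGATAA, and in the form ending in G as AGATAG and as TGATAG. None of these was in the 7 windows (0 windows), against 29.8% of all windows with at least 1. A match describes the letters in the window and is not a binding site.

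The populations carried the transcripts of several cell types. The labels were checked first on Tek, the gene of Tie2, which had values of 12.06, 10.86 and 9.80 on Tie2-positive and 4.81, 4.79 and 4.90 on Tie2-negative arrays, on the log2 scale after quantile normalization, where the median over all gene values was 6.55. The median of 10 endothelial markers lay between 9.01 and 11.36 on Tie2-positive and between 5.56 and 5.98 on Tie2-negative arrays. That of 8 erythroid markers was 5.92, 8.14 and 5.46 on Tie2-positive arrays 1, 2 and 3 and lay between 11.26 and 12.44 on Tie2-negative arrays, although both gates excluded Ter119. The 8 neutrophil markers had medians of 6.03, 12.11 and 13.51 on Tie2-positive arrays 1, 2 and 3, against 6.25 to 8.88 on Tie2-negative arrays, so Tie2-positive replicate 1 stood apart from the other two. The median of 8 early B-cell markers lay between 5.52 and 5.87 on Tie2-positive and between 8.07 and 10.54 on Tie2-negative arrays. Limma called 5 of the 8 erythroid and 5 of the 8 early B-cell markers lower, 7 of the 10 endothelial markers higher and 0 of the 8 neutrophil markers either way (0 also at an unadjusted p under 0.05). The 5 megakaryocyte markers had medians of 6.74, 9.86 and 8.58 on Tie2-positive arrays 1, 2 and 3, against 6.12 to 6.33 on Tie2-negative arrays. The 6 macrophage markers had medians from 6.07 to 7.11 on Tie2-positive and from 5.40 to 6.10 on Tie2-negative arrays. In each of these lists limma called 1 marker higher and 0 lower. They were Pf4 (5.29 ± 0.79, SE, limma adjusted p = 0.0170) and Mrc1 (4.89 ± 0.79, SE, limma adjusted p = 0.0205), named after their values were seen. Of the 6 macrophage markers, 2 had a change below 0. Mrc1 had 11.00, 10.35 and 7.73 on Tie2-positive arrays 1, 2 and 3. Among these arrays the macrophage median was highest on replicate 3 and the endothelial median on replicate 1. Which cell type gave the Mrc1 values was not tested. The median of 7 stromal and skeletal markers was between 5.64 and 6.52 on Tie2-positive and between 6.05 and 6.57 on Tie2-negative arrays. In such bulk samples fewer cells of a type and less RNA per cell cannot be told apart. Whether the 3 samples of each population are from different litters is not stated, and a p-value therefore covers only their own spread, part of which may be technical.

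Of the 8 measured genes, 1 passed the test: Prdx2 fell in the Tie2-positive population, while 7 genes did not pass and 0 rose. The test was limma's, called at a Benjamini-Hochberg adjusted p under 0.05 in the fit of all 18193 genes, of which 2.53% fell and 4.86% rose. The log2 change, Tie2-positive minus Tie2-negative, was below 0 for 7 of the 8, and so it was for 60.9% of all genes. The median change of the 8 was -1.15, against -0.11 over all genes. In 5 genes (Car2, Bpgm, Prdx2, Gpx1 and Sod1) every Tie2-positive array lay below every Tie2-negative array, which held for 23.9% of all genes. The 8 genes differed in the source of their spread, which is described gene by gene below and shown in the plot of all values.

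**Figure D1:**
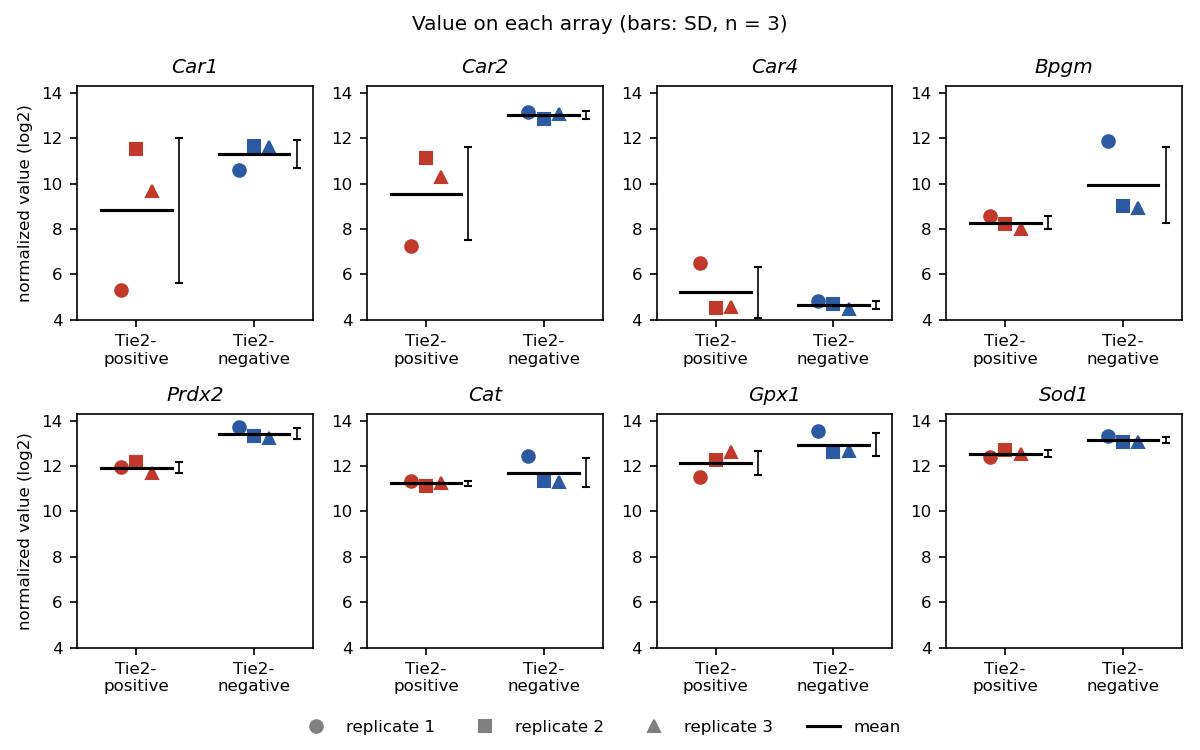
Normalized log2 value of each gene (vertical axis) on the 3 Tie2-positive (red) and 3 Tie2-negative (blue) arrays, with replicates as symbols, the mean as a line and the SD as a bar. Car1 and Car2 spread widely among Tie2-positive arrays, Bpgm and Cat have 1 high Tie2-negative array, and the populations of Prdx2 and Sod1 lie apart with narrow spread.

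Prdx2 encodes peroxiredoxin 2, one of the most abundant proteins of red cells. Its values were 11.96, 12.16 and 11.67 on Tie2-positive arrays, against 13.71, 13.34 and 13.23 on Tie2-negative arrays. Each population kept to a narrow range and the ranges lay more than 1 log2 unit apart. The means were 11.93 ± 0.25 in Tie2-positive and 13.42 ± 0.25 in Tie2-negative samples (SD, n = 3 each), a change of -1.50 ± 0.19 (SE; limma adjusted p = 0.0125), or 2.82-fold lower. Its other probe set had values of 9.76, 9.75 and 9.12 on Tie2-positive arrays and of 12.48, 11.26 and 11.24 on Tie2-negative arrays. That probe set passed as well, with a change of -2.11 ± 0.38 (SE; adjusted p = 0.0297 in limma's fit of all 45037 probe sets). The change of Prdx2 without any single array ran from -1.61 to -1.35. The call was lost without Tie2-negative replicate 1 (adjusted p = 0.0633) or replicate 2 (adjusted p = 0.0668), fits in which limma called 0 of all genes (4012 and 3980 genes had an unadjusted p under 0.05). With Tie2-positive replicates 2 and 3, the arrays with high neutrophil transcripts, left out together, the change of Prdx2 was -1.47. That fit has a lone Tie2-positive array and takes its spread from the Tie2-negative arrays, so only the size is given. The erythroid and early B-cell medians given above were lower in the Tie2-positive population. Their part in the Prdx2 result, and that of the neutrophil transcripts, was not tested.

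Sod1, the cytosolic copper and zinc superoxide dismutase, lay just outside the threshold. It had values of 12.38, 12.69 and 12.55 on Tie2-positive arrays, against 13.31, 13.05 and 13.06 on Tie2-negative arrays. The arrays of the populations did not overlap, but the gap was small. The means were 12.54 ± 0.16 in Tie2-positive and 13.14 ± 0.15 in Tie2-negative samples (SD, n = 3 each), with a change of -0.60 ± 0.14 (SE; limma adjusted p = 0.0536). Among alternatives the adjusted p ran from 0.0206 with array weights, which leaned mostly on Tie2-positive replicate 2, to 0.282 when its probe sets were averaged. Sod1 had 5 probe sets, and their changes in the fit over all probe sets were -0.60, -0.38, -0.44, -0.08 and -0.07, none past the threshold. The probe set with -0.38 was close in level to the one used, with values of 12.07, 12.42 and 12.13 on Tie2-positive arrays and of 12.63, 12.69 and 12.44 on Tie2-negative arrays.

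Gpx1, the cytosolic glutathione peroxidase, had values of 11.53, 12.26 and 12.61 on Tie2-positive arrays and of 13.53, 12.61 and 12.68 on Tie2-negative arrays. The populations were adjacent, with Tie2-positive replicate 3 and Tie2-negative replicate 2 nearly level, and the outer arrays were the first of each population. The means were 12.13 ± 0.55 in Tie2-positive and 12.94 ± 0.52 in Tie2-negative samples (SD, n = 3 each). The change of -0.81 ± 0.35 (SE) did not pass (limma adjusted p = 0.186), and it was -0.51 both without Tie2-positive replicate 1 and without Tie2-negative replicate 1. With Tie2-positive replicates 2 and 3 left out, which leaves a lone Tie2-positive array, the change was -1.41.

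Cat, the peroxisomal catalase, had values of 11.35, 11.13 and 11.25 on Tie2-positive arrays and of 12.43, 11.34 and 11.31 on Tie2-negative arrays. Apart from Tie2-negative replicate 1 all arrays lay within a narrow band, and the populations overlapped. The change of -0.45 ± 0.32 (SE) did not pass (limma adjusted p = 0.371), and without Tie2-negative replicate 1 it was -0.09 (adjusted p = 0.770). The second Cat probe set had the same high array, with 10.32, 10.33 and 10.54 on Tie2-positive arrays and 11.76, 10.48 and 10.35 on Tie2-negative arrays.

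Bpgm had the strongest such array. Its values were 8.58, 8.24 and 8.02 on Tie2-positive arrays, against 11.88, 8.995 and 8.92 on Tie2-negative arrays. Every Tie2-positive array was lower, yet Tie2-negative replicates 2 and 3 lay nearer to the Tie2-positive arrays than to their own replicate 1. The means were 8.28 ± 0.28 in Tie2-positive and 9.93 ± 1.69 in Tie2-negative samples (SD, n = 3 each). The change of -1.66 ± 0.78 (SE) did not pass (limma adjusted p = 0.212), and without Tie2-negative replicate 1 it was -0.68 (adjusted p = 0.212). All 3 Bpgm probe sets showed the pattern: Tie2-negative replicate 1 exceeded the mean of replicates 2 and 3 by 2.92 in the probe set used and by 3.41 and 2.41 in the others. Over all genes, 305 (1.68%) had Tie2-negative replicate 1 at least 1 above both other arrays of that population. Each of the 8 erythroid markers was also highest on that array within its population. Alas2, the erythroid enzyme of the first step of haem synthesis, had 6.13, 6.87 and 5.62 on Tie2-positive and 13.87, 10.44 and 9.15 on Tie2-negative arrays. Of the 8 it had the largest excess on Tie2-negative replicate 1, and it was named after its value was seen. The excess was small in others, such as Ermap (12.12, 11.805 and 12.11 on Tie2-negative arrays) and Klf1 (12.35, 12.07 and 12.25). The 3′ minus 5′ difference of control probe sets, a measure of RNA length, was also highest on Tie2-negative replicate 1. It averaged 1.60 ± 0.19 in Tie2-positive and 1.91 ± 0.09 in Tie2-negative samples (SD, n = 3 each). It ran from 1.44 to 1.805 on Tie2-positive and from 1.845 to 2.015 on Tie2-negative arrays. RNA length therefore cannot be told apart from the population for any gene, Prdx2 and Sod1 included. The part of erythroid transcripts or of RNA length in the Bpgm, Cat and Gpx1 values was not tested.

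**Figure D2:**
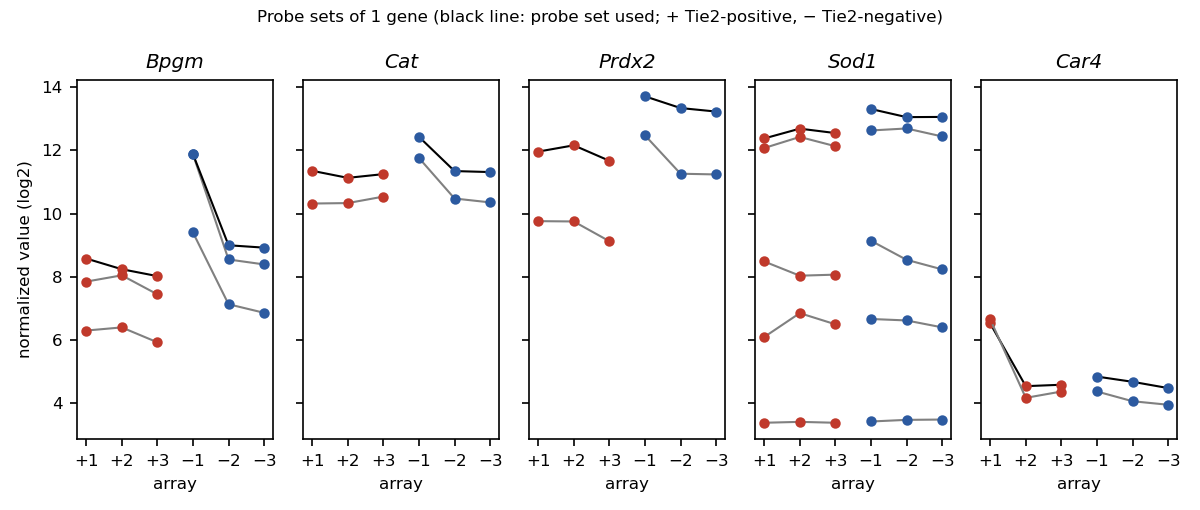
Normalized log2 values of every probe set of the genes that had more than 1, on Tie2-positive arrays (+, red) and Tie2-negative arrays (−, blue); a line joins the values of 1 probe set, black for the one used, and carries no order of replicates. All 3 Bpgm and both Cat probe sets are highest on Tie2-negative replicate 1, and both Car4 probe sets on Tie2-positive replicate 1.

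Car2 had the largest mean difference of the 8 genes over the 6 arrays and did not pass. Its values were 7.23, 11.14 and 10.31 on Tie2-positive arrays, against 13.17, 12.83 and 13.05 on Tie2-negative arrays. The Tie2-negative arrays were close together and all above the Tie2-positive arrays, among which replicate 1 was far the lowest. Over all genes, 1292 (7.1%) had Tie2-positive replicate 1 at least 1 below both other arrays of that population. The means were 9.56 ± 2.06 in Tie2-positive and 13.01 ± 0.17 in Tie2-negative samples (SD, n = 3 each), a change of -3.46 ± 0.92 (SE; limma adjusted p = 0.0703). Without Tie2-positive replicate 1 the change was smaller and passed (-2.29, limma adjusted p = 0.00283). With only that Tie2-positive array kept the change was -5.78. Klf1, an erythroid transcription factor, had values of 6.34, 10.42 and 9.04 on Tie2-positive and of 12.35, 12.07 and 12.25 on Tie2-negative arrays. It was named after its values were seen. Of the 8 erythroid markers its profile lay nearest to that of Car2, so their likeness follows from this choice. Klf1 was one of 4 of the 8 erythroid markers that, like Car2, were lowest of the Tie2-positive arrays on replicate 1 (Hemgn, Klf1, Ermap and Rhag). The other 4 (Slc4a1, Alas2, Trim10 and Epb42) and the erythroid median were lowest on replicate 3. Among osteoclast markers, Ctsk, the collagen-degrading cathepsin, had 6.01, 5.53 and 5.44 on Tie2-positive and 5.66, 5.43 and 5.93 on Tie2-negative arrays. The median of all 8 osteoclast markers lay between 5.13 and 5.55 on Tie2-positive and between 5.30 and 5.70 on Tie2-negative arrays. One of them, the phosphatase gene Acp5, had 5.16, 7.42 and 6.61 on Tie2-positive and 10.81, 9.85 and 9.55 on Tie2-negative arrays. Its change of -3.67 ± 0.61 (SE) passed (limma adjusted p = 0.0218), and the other 7 did not pass. Like Car2, Acp5 was lowest of the Tie2-positive arrays on replicate 1. Ctsk and Acp5 were named after their values were seen. The part of osteoclasts in the Car2 values was not tested.

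Car1 differed most among the Tie2-positive arrays. Its values were 5.30, 11.52 and 9.67 on Tie2-positive arrays and 10.59, 11.68 and 11.62 on Tie2-negative arrays. The populations overlapped, because Tie2-positive replicate 2 lay within the Tie2-negative range while Tie2-positive replicate 1 lay more than 5 log2 units below all Tie2-negative arrays. The means were 8.83 ± 3.19 in Tie2-positive and 11.30 ± 0.61 in Tie2-negative samples (SD, n = 3 each), and the change of -2.47 ± 1.45 (SE) did not pass (limma adjusted p = 0.296). Without Tie2-positive replicate 1 the change was -0.70 (limma adjusted p = 0.438). With only that Tie2-positive array kept the change was -6.00. Tie2-positive replicate 2 also had the highest value of the Tie2-positive arrays in each of the 8 erythroid markers, but only the 4 named with Car2 shared its lowest Tie2-positive array. On Tie2-negative replicate 1, where each of the 8 was highest within the population, Car1 was lowest, with a difference of -1.06 from the mean of replicates 2 and 3. Although both gates excluded CD45, its gene Ptprc had 4.87, 9.95 and 11.23 on Tie2-positive and 9.52, 10.41 and 9.42 on Tie2-negative arrays. The part of other blood cells in the Car1 and Car2 values was not tested.

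Car4 was the only one of the 8 genes with a higher mean in the Tie2-positive population. Its values were 6.52, 4.54 and 4.58 on Tie2-positive arrays and 4.84, 4.67 and 4.48 on Tie2-negative arrays. Tie2-positive replicate 1 was the single high array, and the other Tie2-positive arrays lay within the Tie2-negative range. On Tie2-positive arrays 1, 2 and 3 the endothelial median was 11.36, 9.83 and 9.01. The stromal and skeletal median was 6.52, 5.905 and 5.64, and the neutrophil median 6.03, 12.11 and 13.51. The part of any of these cell types in the Car4 values was not tested. Over all genes, 1139 (6.26%) had Tie2-positive replicate 1 at least 1 above both other arrays of that population. The second Car4 probe set gave 6.65, 4.17 and 4.37 on Tie2-positive and 4.37, 4.06 and 3.95 on Tie2-negative arrays. The change of 0.55 ± 0.52 (SE) did not pass (limma adjusted p = 0.502). It turned to -0.10 without Tie2-positive replicate 1 (limma adjusted p = 0.676). With array weights, which leaned mostly on Tie2-positive replicate 2, it turned to -0.03 (limma adjusted p = 0.950). With only replicate 1 of the Tie2-positive arrays kept the change was 1.86.

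**Figure D3:**
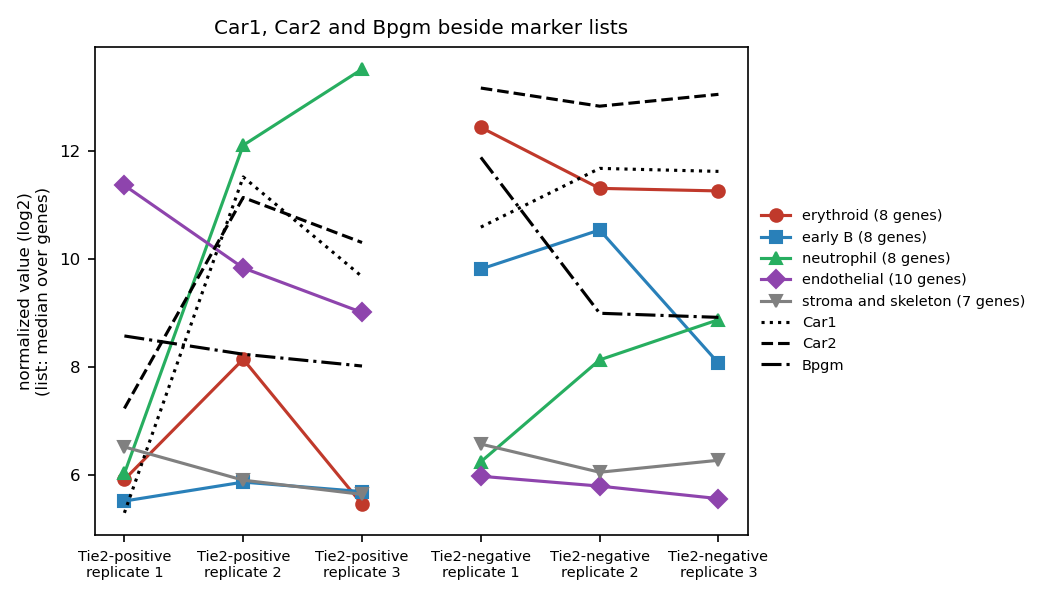
Normalized log2 values of Car1, Car2 and Bpgm (black lines) beside the median of 5 marker lists (coloured symbols) on each array; lines join values of 1 gene or list and carry no order of replicates. Tie2-positive replicate 1 has the lowest Car1, Car2 and neutrophil median and the highest endothelial median, and Tie2-negative replicate 1 has the highest Bpgm and erythroid median.

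Pairs of carbonic anhydrases were set against each other within arrays, and the populations were compared on that difference. Car4 lay between 4.48 and 4.84 on all arrays but Tie2-positive replicate 1, and whether these low values were above background is unknown, so on those 5 arrays the difference from Car2 mainly restates the Car2 values. Car4 minus Car2 was -0.71, -6.60 and -5.73 on Tie2-positive arrays and -8.33, -8.16 and -8.57 on Tie2-negative arrays. All Tie2-positive arrays lay above the Tie2-negative ones, and the mean difference was 4.00 higher in the Tie2-positive population (exact two-sided permutation test, p = 0.1, adjusted p = 0.2 over 2 pairs, n = 3 each). That p is the smallest that 3 against 3 arrays allow, and without Tie2-positive replicate 1 the mean difference was 2.19. Car1 minus Car2 was -1.93, 0.38 and -0.63 on Tie2-positive and -2.58, -1.15 and -1.43 on Tie2-negative arrays. These overlapped, with a mean difference of 0.99 (exact two-sided permutation test, p = 0.3, adjusted p = 0.3, n = 3 each). It was 1.59 without Tie2-positive replicate 1, 0.44 without Tie2-positive replicate 2 and 0.56 without Tie2-negative replicate 1. The planned comparison of Prdx2 with Prdx1 could not be made without a Prdx1 probe set.

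**Figure D4:**
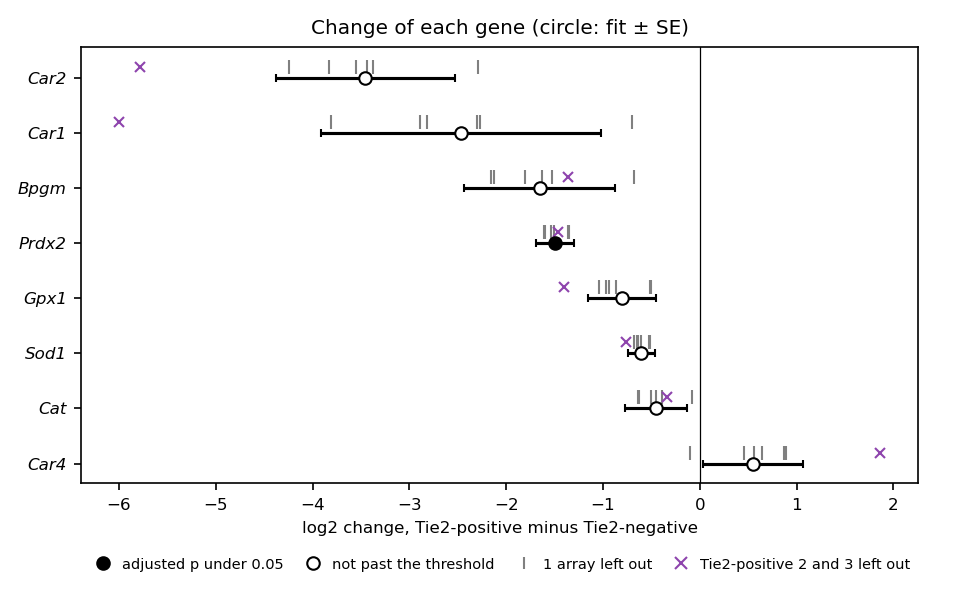
Log2 change of each gene, Tie2-positive minus Tie2-negative (horizontal axis), as a circle with its SE, filled where limma's adjusted p was under 0.05; ticks show the change with 1 array left out and crosses that with Tie2-positive replicates 2 and 3 left out. Prdx2 and Sod1 move little, Car1 and Car2 move most, by up to several log2 units, and Car4 and Bpgm move less than these.

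The genes with the most similar profiles were found by the root-mean-square distance between log2 values over the 6 arrays, each gene centred on its own mean. For Car2 they were Tfrc, the transferrin receptor that imports iron (distance 0.13), Klf1 (0.18) and the metallothionein gene Mt1 (0.40). Car1 was closest to Tfr2, the second transferrin receptor (0.53), Bex4 (0.62) and Bcl11a, a repressor of embryonic and fetal globin genes (0.70). Bpgm was closest to Hbb-bh1, an embryonic beta-like globin (0.20), then Fam220a (0.22) and Ube2o, a ubiquitin enzyme that acts in reticulocytes (0.28). Hbb-bh1 had 5.36, 5.20 and 5.23 on Tie2-positive arrays and 8.50, 5.64 and 5.67 on Tie2-negative arrays. That it shares the single high array of Bpgm follows from its choice by profile, as does the likeness of Klf1 to Car2. Prdx2 was closest to Psmd9 (0.06), Wdr81 (0.12) and Psmf1 (0.12). For Cat the nearest were Wt1, Auh and Smarcc2 (0.04 to 0.08), and for Gpx1 they were Ogt, Mdc1 and Kif23 (0.06 to 0.09). Those of Car4 were Unc45bos, Denn2b and Ssu2 (0.12 to 0.13). Sod1 varied by less than 1 log2 unit over the arrays and was not compared. These distances rest on 6 arrays that share 2 populations, and they are a description only.

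Around these enzymes, 64 of 70 related genes were measured, of which 10 fell (15.6%) and 6 rose (9.38%), against 2.53% and 4.86% of all genes. Their median change was -0.22, against -0.11 over all genes. Without Tie2-positive replicate 2 limma called 10 of them, without Tie2-negative replicate 3 it called 5, and leaving out Tie2-negative replicate 1 or 2 left 0.

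Of 13 other carbonic anhydrases measured, 1 rose, 0 fell and 12 did not pass. Car8, which encodes a carbonic anhydrase-related protein without enzyme activity, had 8.24, 5.66 and 6.04 on Tie2-positive arrays, against 3.59, 3.91 and 3.84 on Tie2-negative arrays. It rose, with a change of 2.87 ± 0.63 (SE; limma adjusted p = 0.0436), and as with Car4 its highest array was Tie2-positive replicate 1. Of 6 measured genes of bicarbonate, gas and water transport, 1 fell, 1 rose and 4 did not pass. Rhag, a gas channel protein of the red-cell membrane, fell with a change of -5.67 ± 0.70 (SE), and Slc4a2, an anion exchanger of many tissues, rose by 1.10 ± 0.25 (SE; limma adjusted p = 0.0481). Slc4a1, the red-cell anion exchanger that moves the bicarbonate made by carbonic anhydrase, had 7.94, 10.02 and 4.60 on Tie2-positive and 13.44, 12.72 and 11.57 on Tie2-negative arrays. Its change of -5.06 ± 1.29 (SE) did not pass (limma adjusted p = 0.0625), and it was named after its value was seen.

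Of 9 measured peroxiredoxins and thioredoxin system genes, 2 fell, 0 rose and 7 did not pass. Both that fell act in mitochondria, as peroxiredoxin and as the reductase that serves it through thioredoxin. Txnrd2, the reductase, had 7.18, 8.33 and 7.84 on Tie2-positive and 10.26, 10.12 and 9.85 on Tie2-negative arrays, and fell by 2.29 ± 0.33 (SE; limma adjusted p = 0.0151). Prdx3, the peroxiredoxin, had 8.69, 9.69 and 10.04 on Tie2-positive and 11.67, 11.29 and 11.07 on Tie2-negative arrays, and fell by 1.88 ± 0.37 (SE; limma adjusted p = 0.0350).

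Glutathione genes moved in both directions. Of 16 measured, 4 fell, 3 rose and 9 did not pass. The 4 that fell were named after their values were seen: the catalytic and modifier subunits of glutamate-cysteine ligase, Gclc (-1.94 ± 0.24, SE) and Gclm (-2.02 ± 0.35, SE), glutathione synthetase Gss (-1.19 ± 0.24, SE), and the mitochondrial glutaredoxin of iron-sulphur cluster assembly Glrx5 (-1.46 ± 0.30, SE). Gclc, Gclm and Gss are the genes of glutathione synthesis. The 3 that rose were Gpx8 (3.17 ± 0.45, SE) and Gpx7 (2.56 ± 0.48, SE), peroxidases of the endoplasmic reticulum, and the microsomal transferase Mgst1 (2.46 ± 0.54, SE). Gpx8 had 8.92, 7.18 and 7.36 on Tie2-positive and 4.62, 4.52 and 4.80 on Tie2-negative arrays. The limma adjusted p of these 7 genes ran from 0.0125 for Gclc to 0.0433 for Mgst1.

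**Figure D5:**
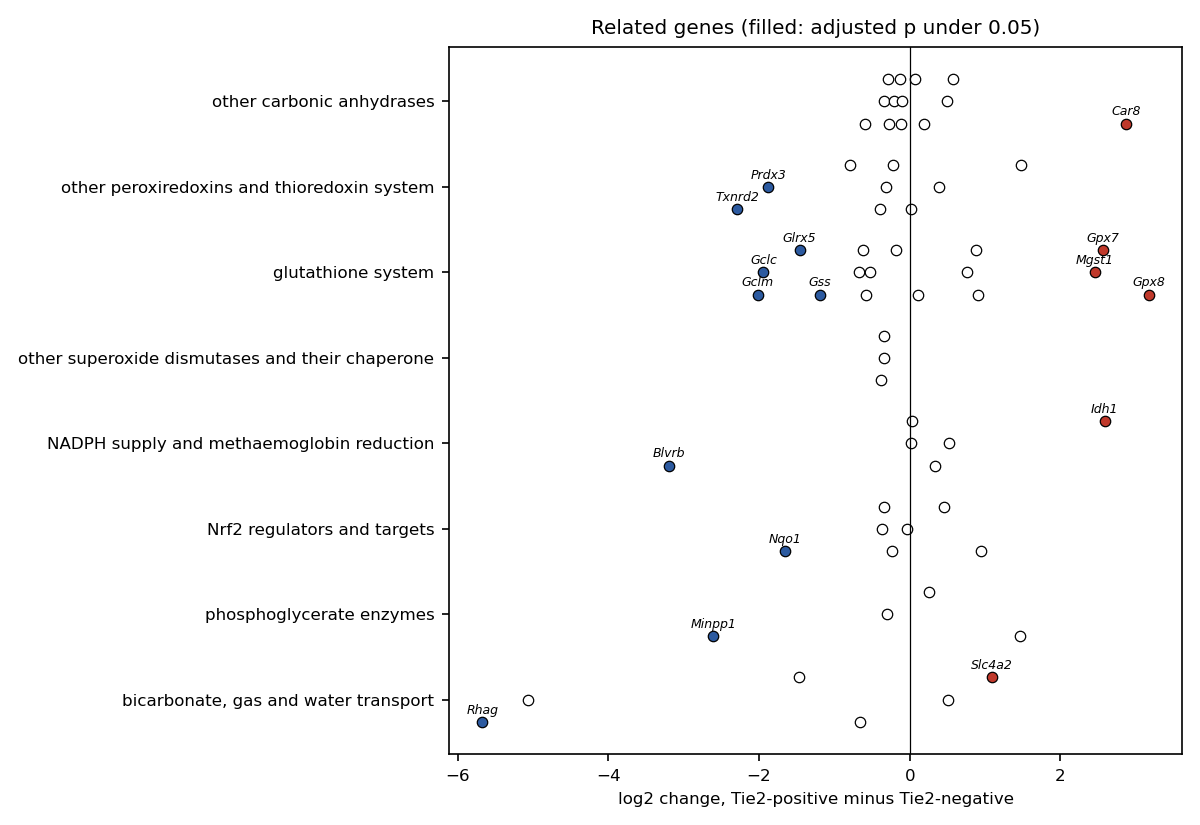
Log2 change, Tie2-positive minus Tie2-negative (horizontal axis), of 64 related genes in 8 groups (rows; height within a row has no meaning), filled and named where limma's adjusted p was under 0.05, red for higher and blue for lower in the Tie2-positive population. The genes of glutathione synthesis lie left of 0 and Gpx7, Gpx8 and Mgst1 right of it.

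Among 6 measured genes of NADPH supply and methaemoglobin reduction, 1 fell and 1 rose. Blvrb, the flavin and biliverdin reductase abundant in red cells, had 8.58, 9.39 and 7.88 on Tie2-positive and 12.47, 11.64 and 11.34 on Tie2-negative arrays, and fell by 3.20 ± 0.45 (SE; limma adjusted p = 0.0149). Idh1, a cytosolic source of NADPH, had 10.59, 9.87 and 10.58 on Tie2-positive and 7.46, 8.02 and 7.78 on Tie2-negative arrays, and rose by 2.59 ± 0.29 (SE; limma adjusted p = 0.0104). Of 7 regulators and targets of the antioxidant factor Nrf2, 1 fell and 0 rose. This was Nqo1, a quinone reductase (-1.65 ± 0.36, SE; limma adjusted p = 0.0431). Of 4 measured phosphoglycerate enzymes, 1 fell and 0 rose. It was Minpp1, a phosphatase of inositol phosphates that also acts on bisphosphoglycerate, the product of Bpgm, and its change was -2.61 ± 0.31 (SE; limma adjusted p = 0.0116). None of the 3 genes of other superoxide dismutases and their chaperone passed in limma, also at an unadjusted p under 0.05 (0 genes). The changes were -0.38 ± 0.23 (SE) for the mitochondrial Sod2 and -0.34 ± 0.23 (SE) for Ccs, the copper chaperone of Sod1.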

How the data were processed

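RNA of 6 sorted samples was amplified in 2 rounds and hybridised to Affymetrix 430 2.0 arrays scanned with GCOS 1.1.1, per the labels' protocols. The deposited table gives each probe set a single value on every array, from 2.56 to 14.78, which was read as log2 from that range. The summary and normalization behind these deposited log2 values are not given in the sources used here. The deposited values carry no detection calls, so whether a low value lay above background is unknown, and with 3 arrays a side their number limits the precision.

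The 75th percentiles of the arrays differed by 0.27, above a limit of 0.1, and the values were quantile normalized. Of 45037 probe sets other than array controls, 34945 named 1 gene in the platform annotation, 932 named several and 9160 were unnamed here, and RefSeq (GRCm38.p6) held 34741 of the 34945 by gene ID. The array tables name no genome build, and coordinates are those of the RefSeq promoter table. Limma 3.58.1 in R 4.3.3 (lmFit, eBayes with a mean trend, two-sided) compared the populations over 18193 genes, without covariates. It was also run on simulated data of 18193 genes, 3 against 3, with 200 genes changed per draw and equal normal noise on all arrays. There it recovered 34.8%, 70% and 85.6% of genes changed by 1, 2 and 3 on the log2 scale, and 6.29% of its calls were false. No simulated array stood apart from its replicates, so these rates need not hold for the real arrays.

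The genes, related lists, markers, motifs and tests were chosen with earlier results of these data known. Related genes were named by a rule: up to 3 called genes with the largest change per list, otherwise the 2 with the highest mean. Genes of similar profile were the 3 nearest to each gene whose values spanned at least 1 on the log2 scale. Alternatives were the values as deposited, median centring, a filter at the 40th percentile, the mean of all probe sets, leaving out x_at and s_at probe sets, testing all probe sets, eBayes without trend or with robust estimation, array weights, the replicate number as a block, and leaving out arrays. The array weights of replicates 1, 2 and 3 were 0.25, 5.83 and 0.84 for Tie2-positive and 0.55, 1.49 and 1.01 for Tie2-negative samples. That fit therefore leaned mostly on Tie2-positive replicate 2.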

Additional observations from a re-analysis of the deposited data

How the results depend on the processing

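Over 17 alternatives, 7 of the 8 genes kept the direction of their change; Car4 turned to -0.026 with array weights and ran from -0.10 (without Tie2-positive replicate 1) to 0.89 with 1 array left out. Limma called 1 of the 8 in the main setting and 2 with the filter at the 40th percentile (Prdx2 and Sod1; Car4 was filtered out), 3 with array weights and 6 when Tie2-positive replicates 2 and 3 were both left out, a fit that takes the spread of the lone array from the Tie2-negative arrays. Leaving out 1 array gave 0 to 2 of the 8 genes, 0 to 18 of the related genes (16 in the main setting) and 0 to 2148 of all genes (1345 in the main setting). The 0 came from leaving out Tie2-negative replicate 1 or 2, where 4 and 3 of the 8 had an unadjusted p under 0.05. Over all genes limma called 4639 with array weights, 3637 when only replicate 1 of the Tie2-positive arrays was kept, and 2246 of all probe sets. Whether the replicate numbers pair the samples is unknown. The deviations of same-numbered arrays correlated at 0.14, 0.005 and 0.19. No such correlation was computed for differently numbered arrays, so these values cannot decide it. A limma fit with the replicate number as a block called 0 of the 8 genes (4 at an unadjusted p under 0.05), 0 related genes and 0 of all genes. Its adjusted p for Prdx2 was 0.0521. The within-array differences kept their direction in all 10 alternatives, with leave-one-out ranges of 2.19 to 5.13 for Car4 minus Car2 and of 0.44 to 1.59 for Car1 minus Car2.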
